A study of Arabidopsis thaliana with 9 samples.

Results

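The expansin superfamily of Arabidopsis was described here across the 3 genotypes of a root mRNA sequencing study. Its members were all 35 loci named as alpha-expansins (EXPA, 25 genes), beta-expansins (EXPB, 6 genes) or expansin-like A and B genes (EXLA and EXLB, 4 genes) among the 28775 genes in the count files. They were taken by name and not by their values, though earlier results of these data were known. Expansins are small secreted wall proteins that let cellulose and its matrix slide apart at acid pH without cutting either, so a wall under turgor can stretch. Alpha- and beta-expansins have wall-loosening activity, whereas none has been shown for the expansin-like proteins. In roots, single expansins are tied to particular places, such as EXPA7 and EXPA18 to root hairs and EXPA14 and EXPA17 to the cells that emerging lateral roots pass through.

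The samples were roots of 2-week-old plants grown under 16 h of light and 8 h of dark at 24 °C, with 3 libraries per genotype. Col-0 is the wild type, 35S:miR858 overexpresses the microRNA miR858, which guides cleavage of several MYB transcripts, and 35S:rMYB83 overexpresses a miR858-resistant form of MYB83, a MYB factor that activates secondary wall synthesis. Both transgenes are driven by the 35S promoter, which is active in most plant cells, and no label names a nematode infection. The labels state neither how many transgenic lines stand behind a genotype nor how many plants behind a library, so p-values measure the spread between these libraries, which may be technical.

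Libraries held 5313656 to 10648857 gene counts. Wild type had 11, 24 and 6 MYB83 counts and 35S:miR858 had 13, 12 and 14, whereas 35S:rMYB83 had 710, 801 and 903. The MIR858a precursor had 120, 200 and 227 counts in 35S:miR858 and 0 in the other 6 libraries, so both labels matched their transgene. Green shoot markers were unevenly spread, with summed levels of 3469, 840 and 724 CPM in Col-0, 1257, 747 and 1855 CPM in 35S:miR858, and 6530, 980 and 1590 CPM in 35S:rMYB83. They were highest in replicate 1 of both Col-0 and 35S:rMYB83. CPM are counts scaled to a common library size, here with TMM correction, which allows for a few abundant genes taking up much of a library.

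Transcripts of the family as a whole were less abundant in both overexpression lines. The share of gene counts that the 35 genes took was 0.135 ± 0.00745% for Col-0 libraries (SD, n = 3). It was 0.0592 ± 0.00377% for 35S:miR858 and 0.0920 ± 0.00655% for 35S:rMYB83. Their summed level ran from 1163 to 1380 CPM in Col-0, 559 to 668 CPM in 35S:miR858, and from 849 to 1029 CPM in 35S:rMYB83, so the groups did not overlap. In whole roots, fewer cells of a type and less RNA per cell cannot be told apart.

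**Figure D1:**
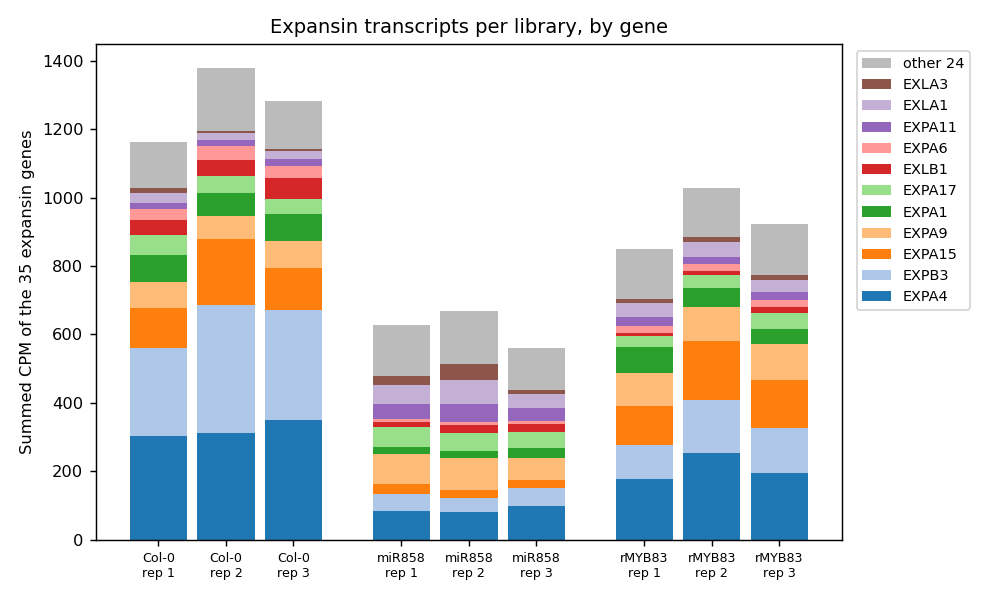
Summed expansin level in TMM-scaled CPM for each library, stacked by gene with the remaining 24 genes in grey. Col-0 libraries lie between 1163 and 1380 CPM, 35S:rMYB83 between 849 and 1029 CPM and 35S:miR858 between 559 and 668 CPM.

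Most of this difference lay in 5 genes, EXPB3, EXPA4, EXPA15, EXPA1 and EXPA6, which were picked after their values were seen. Their sum was 893 ± 97.7 CPM with Col-0, dropped to 193 ± 19.9 CPM with miR858 overexpressed and was 559 ± 88.1 CPM with rMYB83 overexpressed (SD, n = 3). They made up 70.1% of the family's CPM in wild type, but 31.2% for 35S:miR858 and 59.9% for 35S:rMYB83. The other 30 genes summed to 382 ± 14.2, 426 ± 75.1 and 375 ± 16.2 CPM in the same order, so their total differed between genotypes by less than the spread in 35S:miR858. Between Col-0 and 35S:miR858 the family sum differed by -656 CPM, of which EXPB3 gave -270, EXPA4 -234 and EXPA15 -118 CPM. Between Col-0 and 35S:rMYB83 it differed by -341 CPM, of which EXPB3 gave -190, EXPA4 -112 and EXPA15 -1.20 CPM.

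Of the 35 members, 22 had enough counts to be tested: 16 EXPA, 2 EXPB, 3 EXLA and 1 EXLB. The other 13 fell below the filter on low counts. They were EXPA2, EXPA5, EXPA16, EXPA21 to EXPA26, EXPB2, EXPB4, EXPB5 and EXPB6. EXPA5 had 40 counts over all 9 libraries, EXPA21 had 36 and EXPB2 had 25. EXPA2, which is known from seed germination, had 4 counts, and EXPB6, once annotated as a pseudogene in Columbia, had 1. EXPA23, EXPA24, EXPA25 and EXPB5 had 0 counts in every library, which at a floor of 3 counts over the 78344455 counts of the study allows a level of up to 0.0383 CPM. Such floors cover counting error only.

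EXPA21 to EXPA26 form a tandem array on chromosome 5 (chr5:15726243-15740605, minus strand), and no gene of the array passed the filter. EXPA22 and EXPA26 are 97.7% identical over their coding sequence, and EXPA23 and EXPA25 are 97.1% identical. Between 34.0% and 54.5% of the 50-base stretches in the exons of these 4 genes occur again in the genome. For EXPB5, which lies outside the array, this share is 15.5%. Reads from such stretches cannot be assigned to 1 gene, so the low counts of these 4 genes and of EXPB5 are uncertain. EXPA21 shares 964 of its 1216 bases with AT5G39250 on the other strand, which stood at 6.09 ± 1.36, 5.99 ± 0.610 and 7.28 ± 1.14 CPM in Col-0, 35S:miR858 and 35S:rMYB83 (SD, n = 3), so its 36 counts are uncertain too.

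The sequences just upstream of the 5 genes that held most of the family difference are shown so that their promoters can be compared beside their values. In 35S:rMYB83 that difference lay mainly in EXPB3 and EXPA4. MYB46 and MYB83 are known to bind the secondary wall MYB-responsive element (SMRE), searched here in 8 spellings on both strands (ACCAAAT or ACCAAAC or ACCAACT or ACCAACC or ACCTAAT or ACCTAAC or ACCTACT or ACCTACC). Each run gives the 250 bases before the annotated start on the gene's own strand, 5′ to 3′, with any SMRE match in capitals. Sequence and coordinates are from the RefSeq copy of TAIR10.1. The runs lie at chr4:14002125-14002374 (EXPB3, minus), chr2:16545747-16545996 (EXPA4, minus), chr2:918672-918921 (EXPA15, minus), chr1:26141476-26141725 (EXPA1, plus) and chr2:12433797-12434046 (EXPA6, minus).
EXPB3: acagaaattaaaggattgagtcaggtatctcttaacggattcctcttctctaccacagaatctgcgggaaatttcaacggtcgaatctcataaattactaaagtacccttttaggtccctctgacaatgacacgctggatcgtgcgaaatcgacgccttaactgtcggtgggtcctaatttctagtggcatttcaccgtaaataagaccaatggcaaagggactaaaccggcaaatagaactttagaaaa
EXPA4: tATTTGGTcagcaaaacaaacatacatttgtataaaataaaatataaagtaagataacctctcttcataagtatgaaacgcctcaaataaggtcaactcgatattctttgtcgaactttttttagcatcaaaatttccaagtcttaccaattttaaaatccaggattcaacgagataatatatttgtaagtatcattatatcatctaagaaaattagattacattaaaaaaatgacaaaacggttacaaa
EXPA15: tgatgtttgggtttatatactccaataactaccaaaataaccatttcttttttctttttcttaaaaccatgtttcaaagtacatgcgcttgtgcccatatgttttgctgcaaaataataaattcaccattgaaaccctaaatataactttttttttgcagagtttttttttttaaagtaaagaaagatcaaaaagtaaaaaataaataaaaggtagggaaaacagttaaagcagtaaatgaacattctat
EXPA1: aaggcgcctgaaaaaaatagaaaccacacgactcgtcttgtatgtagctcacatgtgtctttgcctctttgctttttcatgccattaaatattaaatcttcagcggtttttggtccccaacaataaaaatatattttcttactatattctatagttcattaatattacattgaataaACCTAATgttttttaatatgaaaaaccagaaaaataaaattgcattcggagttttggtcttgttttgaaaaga
EXPA6: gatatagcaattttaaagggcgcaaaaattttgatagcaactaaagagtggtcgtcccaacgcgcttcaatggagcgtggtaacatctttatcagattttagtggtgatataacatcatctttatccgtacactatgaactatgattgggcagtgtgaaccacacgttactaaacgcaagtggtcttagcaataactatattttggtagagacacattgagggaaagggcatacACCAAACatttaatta
EXPA4, EXPA1 and EXPA6 each have 1 match in the printed run, and a second match in EXPA4 spans its start site. EXPB3 and EXPA15 have none. Over windows of 250 bases before to 50 bases after the start, 10 of the 35 members (28.6%) hold an SMRE match, against 9228 of 27443 genes (33.6%). A match of letters is a description and not a shown binding site.

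The root hair element, a motif of root hair genes, was also searched on both strands in these windows. It occurs in 238 of 27443 genes (0.867%) and in 2 members, EXPA7 and EXPA18. The EXPA7 match lies 78 to 62 bases before the start, and is shown in capitals within the last 100 bases (chr1:4276405-4276504, plus strand). For EXPA18 the match at 40 to 25 bases before the start is shown alone, since AT1G62978 overlaps that window. Another EXPA18 match lies just after the start.
EXPA7: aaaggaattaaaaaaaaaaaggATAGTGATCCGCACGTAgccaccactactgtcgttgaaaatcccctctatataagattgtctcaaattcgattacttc
EXPA18: aacatgaacgcacgtc

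In 35S:miR858, 6 expansins were lower than in Col-0 and 3 were higher, while 13 of the 22 tested did not pass. Those that fell were EXPB3, EXPA15, EXPA6, EXPA4, EXPA1 and EXLB1, and those that rose were EXLA3, EXLA1 and EXPA11. Among all 19496 tested genes, 13.5% were called lower and 11.6% higher (25.1% in either direction) by edgeR's quasi-likelihood test at a Benjamini-Hochberg adjusted p of 0.05. Of the 22 tested expansins, 6 were called lower and 3 higher by at least 2-fold, beside 6.52% and 3.41% of all tested genes. These were all 9 called expansins, whereas 1272 of the 2629 genes called lower and 665 of the 2271 called higher differed by as much. The median log2 fold change was -0.40 over the tested members and -0.02 over all tested genes. In 11 of the 22 the libraries of the 2 genotypes did not overlap, beside 40.6% of all tested genes.

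In 35S:rMYB83, 5 expansins were lower than in Col-0 and 1 was higher, and 16 did not pass. EXPB3, EXPA6, EXPA4, EXLB1 and EXLA2 fell and EXLA1 rose. In that comparison 9.73% of all tested genes were called lower and 6.7% higher (16.4% in either direction). Of the 22 tested, EXPB3, EXLB1 and EXLA2 were called lower by at least 2-fold, beside 4.56% of all tested genes. No expansin was called higher by as much, beside 2.11%. The median log2 fold change was -0.20 over the tested members and 0.01 over all tested genes, and 8 of the 22 members had groups that did not overlap, beside 34% of all genes. Both comparisons use the same Col-0 libraries, so a gene's values in them are not independent.

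Set directly against 35S:miR858, 35S:rMYB83 had 6 expansins higher, 1 lower and 15 that did not pass. The higher genes were EXPA15, EXPA10, EXPB3, EXPA1, EXPA4 and EXPA6, and the lower gene was EXPA11. Across all tested genes 2.5% were called higher and 1.54% lower (4.05% in either direction) between the lines. Of the 22 tested, 6 were called higher by at least 2-fold, beside 1.45% of all tested genes. These were all the expansins called higher, whereas 283 of the 488 genes called higher differed by as much. EXPA11 was lower by less than 2-fold, beside 0.503% of all tested genes called lower by at least that. Of the members, 7 of 22 were called, and 11 had groups that did not overlap, beside 24.8% of all genes. Over the 3 comparisons 11 tested members were called at least once and 11 never. The like share of all tested genes is not given here, so nothing is read from these counts.

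**Figure D2:**
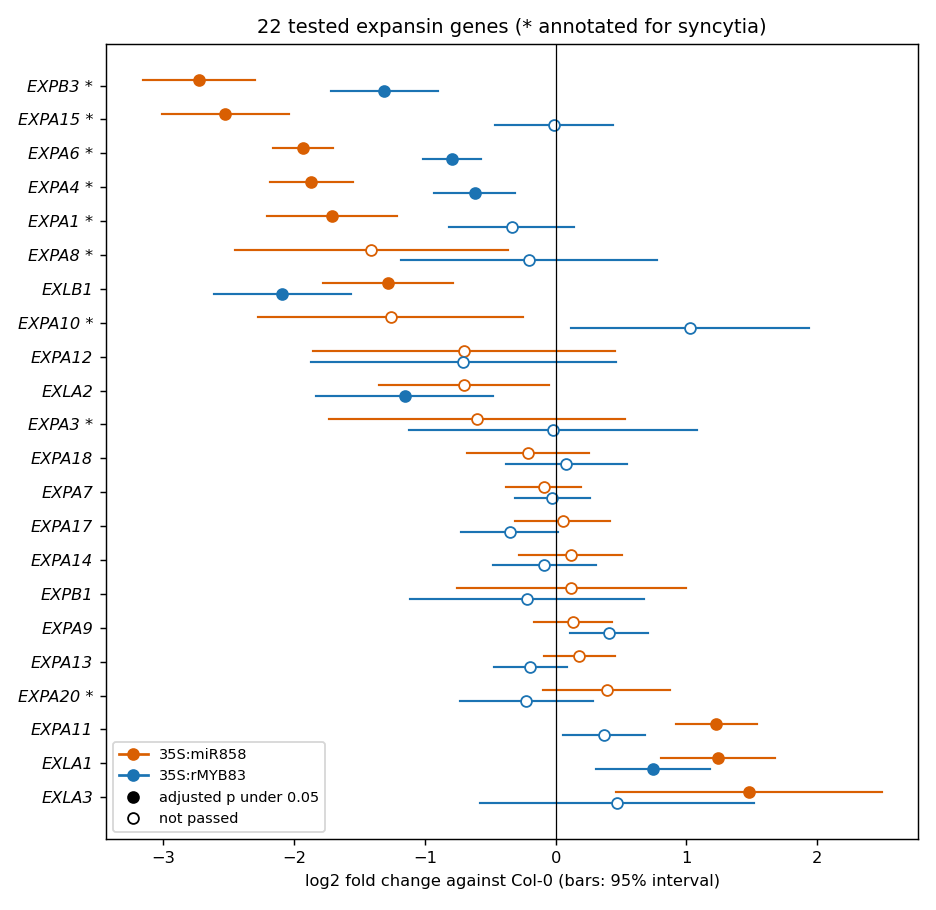
Log2 fold change against Col-0 with 95% interval for the 22 tested expansins in both lines, filled where the adjusted p was under 0.05, with an asterisk for genes annotated for nematode-induced syncytia. EXPB3 has the most negative value in 35S:miR858, at -2.73, and EXLB1 the most negative in 35S:rMYB83, at -2.09.

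EXPB3 (AT4G28250, chr4:13999625-14002124, minus strand) encodes a beta-expansin and had the largest fall in 35S:miR858. It stood at 258, 376 and 320 CPM in the Col-0 libraries, at 50.2, 41.6 and 52.0 CPM in 35S:miR858, and at 98.1, 154 and 132 CPM in 35S:rMYB83. The 3 groups did not overlap, with wild type highest and 35S:miR858 lowest. EXPB3 was 6.62-fold lower in 35S:miR858 (log2 -2.73, SE 0.193, adjusted p = 3.47e-05 by edgeR) and 2.48-fold lower in 35S:rMYB83 (log2 -1.31, SE 0.182, adjusted p = 0.00147). Between the lines it was 2.67-fold higher in 35S:rMYB83 (log2 1.42, SE 0.187, adjusted p = 0.00392). Its relative EXPB1, the other tested beta-expansin and 76.0% identical in coding sequence, had 7.92, 24.0 and 8.67 CPM in Col-0, 13.5, 18.3 and 12.6 CPM in 35S:miR858 and 9.83, 15.2 and 9.86 CPM in 35S:rMYB83. The groups overlapped and EXPB1 did not pass in any comparison (log2 0.12 and -0.22 in the lines against Col-0), but without Col-0 replicate 2, its highest library, it was higher in 35S:miR858 (log2 0.84, adjusted p = 0.0427). Its direction in 35S:miR858 was below 0 (log2 -0.02) with library totals in place of TMM scaling.

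EXPA4 (AT2G39700, chr2:16543832-16545746, minus strand) is an alpha-expansin and, per kb of exon, the most abundant expansin of wild-type roots. Its levels were 302, 311 and 351 CPM in Col-0, 84.8, 80.4 and 99.0 CPM in 35S:miR858, and 178, 254 and 196 CPM in 35S:rMYB83. All 3 groups were apart, in the same order as for EXPB3. EXPA4 fell 3.65-fold in 35S:miR858 (log2 -1.87, SE 0.143, adjusted p = 4.11e-05) and was higher in 35S:rMYB83 than in 35S:miR858 (log2 1.25, SE 0.141, adjusted p = 0.00184). The 1.54-fold fall in 35S:rMYB83 (log2 -0.62, SE 0.138, adjusted p = 0.0140) no longer passed without Col-0 replicate 3 (adjusted p = 0.0547) or without 35S:rMYB83 replicate 3 (0.0536).

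EXPA6 (AT2G28950, chr2:12431338-12433796, minus strand), the closest tested relative of EXPA4 at 76.6% coding identity, moved in the same order at a lower level. It had 32.9, 39.5 and 35.8 CPM in Col-0, 9.47, 9.46 and 9.35 CPM in 35S:miR858, and 21.2, 21.0 and 20.3 CPM in 35S:rMYB83. The spread within both lines was small and no groups overlapped. The fall was 3.82-fold in 35S:miR858 (log2 -1.93, SE 0.103, adjusted p = 9.95e-06) and 1.73-fold in 35S:rMYB83 (log2 -0.79, SE 0.0981, adjusted p = 0.000766). The lines differed by log2 1.14 (SE 0.105, adjusted p = 0.00132), with 35S:rMYB83 higher.

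EXPA15 (AT2G03090, chr2:916806-918671, minus strand) was low in 35S:miR858 and at the wild-type level in 35S:rMYB83. Its libraries read 116, 191 and 123 CPM in Col-0, 27.7, 23.3 and 23.5 CPM in 35S:miR858, and 114, 172 and 139 CPM in 35S:rMYB83. Every 35S:miR858 library was below all 6 others, which overlapped each other. EXPA15 fell 5.76-fold in 35S:miR858 (log2 -2.53, SE 0.218, adjusted p = 6.93e-05). In 35S:rMYB83 the difference from Col-0 was log2 -0.01 (95% interval -0.46 to 0.44, adjusted p = 0.982). The direct comparison gave 5.72-fold more in 35S:rMYB83 than in 35S:miR858 (log2 2.52, SE 0.219, adjusted p = 0.00111).

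EXPA1 (AT1G69530, chr1:26141726-26143538, plus strand), known from guard cells, where it takes part in stomatal opening, had a like pattern. It was measured at 79.5, 64.9 and 78.8 CPM in Col-0, 19.8, 18.9 and 29.5 CPM in 35S:miR858, and 76.8, 56.8 and 44.1 CPM in 35S:rMYB83. The 35S:miR858 libraries were the lowest, and Col-0 and 35S:rMYB83 overlapped. The fall in 35S:miR858 was 3.26-fold (log2 -1.71, SE 0.223, adjusted p = 0.000587), and the value in 35S:rMYB83 was log2 -0.34 (95% interval -0.81 to 0.14, adjusted p = 0.328). EXPA1 was higher in 35S:rMYB83 than in 35S:miR858 (log2 1.37, SE 0.223, adjusted p = 0.00890), a call that did not pass without 35S:miR858 replicate 2 (adjusted p = 0.0534). EXPA1 was highest within its group in replicate 1 of Col-0 and of 35S:rMYB83, the libraries with most green shoot marker RNA. In both of these libraries EXPB3, EXPA4 and EXPA15 were instead the lowest of their group. Without both libraries, EXPA1 differed by log2 -1.64 (adjusted p = 0.000548) in 35S:miR858, -0.49 (0.157) in 35S:rMYB83 and 1.15 (0.0187) between the lines. Its value in 35S:rMYB83 ran from -0.56 to -0.17 over the 16 alternatives, from the fit without 35S:rMYB83 replicate 1 to that without replicate 3, and passed in none.

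EXPA10 (AT1G26770, chr1:9259432-9261313, plus strand), known for its part in leaf and pedicel growth, is 73.8% identical to EXPA15 in coding sequence and was called only in the direct comparison. It had 8.87, 4.34 and 4.21 CPM in Col-0, 2.04, 1.28 and 3.87 CPM in 35S:miR858, and 17.4, 10.4 and 8.61 CPM in 35S:rMYB83. It was lowest in every 35S:miR858 library, and 35S:rMYB83 overlapped Col-0 narrowly through Col-0 replicate 1. The lines differed by log2 2.29 (SE 0.451, adjusted p = 0.0218), while neither line passed against Col-0 (log2 -1.26 with adjusted p = 0.0693 in 35S:miR858, and 1.03 with 0.120 in 35S:rMYB83). EXPA10 was highest within its group in the replicate 1 libraries of Col-0 and 35S:rMYB83, the same 2 libraries that held the most green shoot marker RNA. Without both, the difference between the lines was log2 1.96 (adjusted p = 0.0196), and the values against Col-0 were -0.79 (0.152) in 35S:miR858 and 1.16 (0.0603) in 35S:rMYB83. Single libraries also decided calls: the direct call did not pass without 35S:miR858 replicate 1 (adjusted p = 0.0741), 35S:miR858 replicate 2 (0.0932), 35S:rMYB83 replicate 1 (0.0666) or 35S:rMYB83 replicate 2 (0.0618). EXPA10 passed as lower in 35S:miR858 without 35S:miR858 replicate 3 (0.0345) and as higher in 35S:rMYB83 without Col-0 replicate 1 (0.0342). With all libraries, DESeq2 also called it lower in 35S:miR858 (log2 -1.25, adjusted p = 0.0373).

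EXPA11 (AT1G20190, chr1:6998335-6999839, minus strand) is the one alpha-expansin that rose in 35S:miR858. Its levels were 16.8, 18.8 and 20.2 CPM in Col-0, 44.5, 50.5 and 35.9 CPM in 35S:miR858, and 26.1, 22.1 and 24.0 CPM in 35S:rMYB83. The groups were apart, with 35S:miR858 highest and 35S:rMYB83 between. EXPA11 was 2.35-fold higher in 35S:miR858 than in Col-0 (log2 1.23, SE 0.139, adjusted p = 0.000265) and was lower in 35S:rMYB83 than in 35S:miR858 (log2 -0.86, SE 0.139, adjusted p = 0.00855). Against Col-0, 35S:rMYB83 gave log2 0.37 (adjusted p = 0.107).

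**Figure D3:**
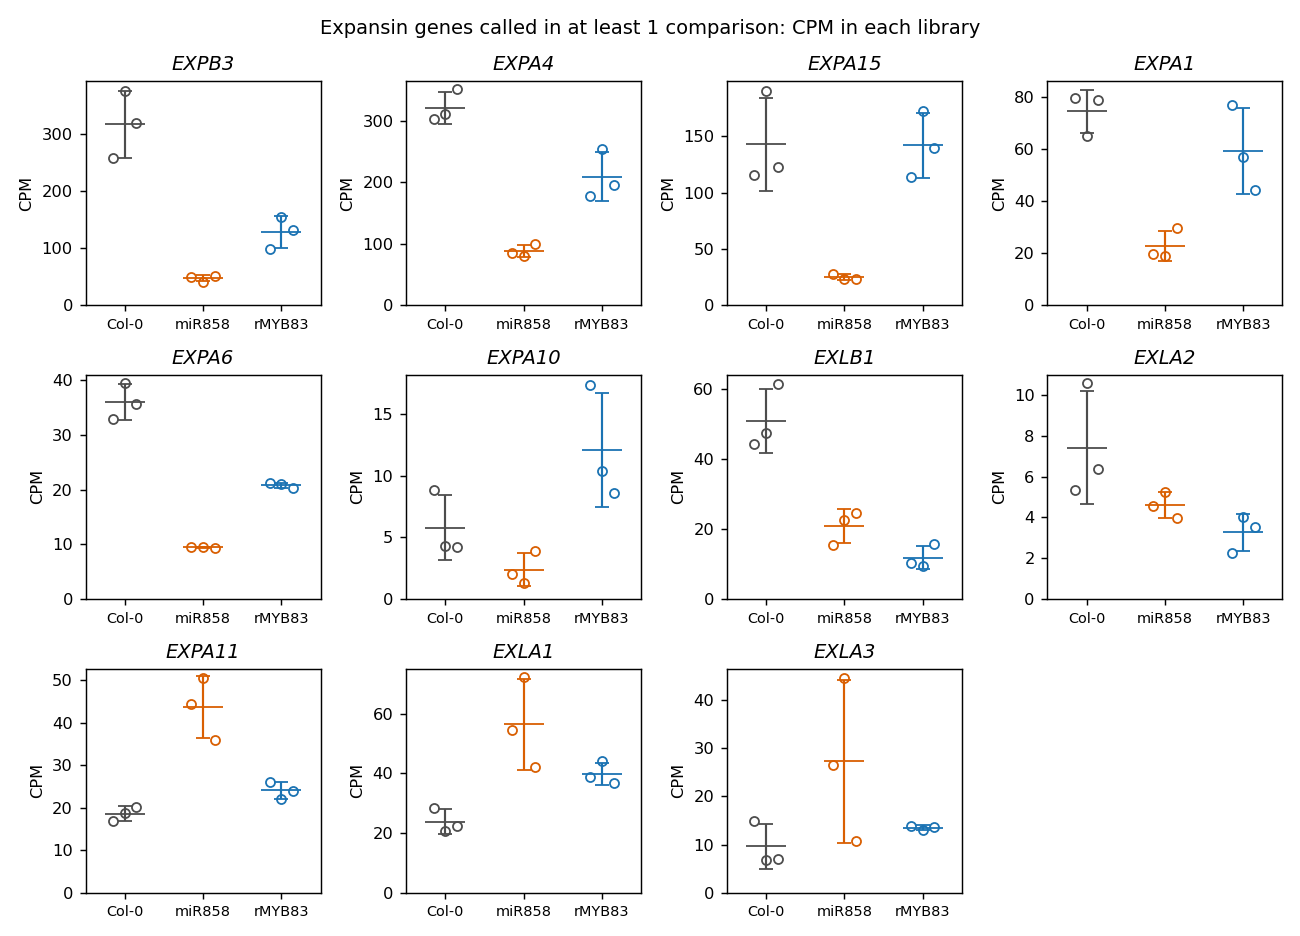
Level in TMM-scaled CPM (linear axis from 0) in every library (circles), with mean and SD (lines), for the 11 expansins called in at least 1 comparison. EXPB3, EXPA4, EXPA6, EXPA15 and EXPA1 are lowest in every 35S:miR858 library, while EXPA11 is highest there.

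The 4 expansin-like genes went in different directions. EXLB1 (AT4G17030, chr4:9581562-9583290, minus strand), the single expansin-like B gene, stood at 44.1, 47.2 and 61.3 CPM in Col-0, 15.3, 22.6 and 24.5 CPM in 35S:miR858, and 10.2, 9.53 and 15.6 CPM in 35S:rMYB83. Both lines lay below every wild-type library, and the lines overlapped each other. EXLB1 fell 2.43-fold in 35S:miR858 (log2 -1.28, SE 0.222, adjusted p = 0.00267) and 4.26-fold in 35S:rMYB83 (log2 -2.09, SE 0.234, adjusted p = 0.000455). The difference between the lines did not pass (log2 -0.81, adjusted p = 0.0966), but it did without 35S:rMYB83 replicate 3 (log2 -1.09, adjusted p = 0.0484), with DESeq2 (0.0274) and with the replicate number as a block (0.0181).

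EXLA1 (AT3G45970, chr3:16896166-16897308) and EXLA3 (AT3G45960, chr3:16892702-16894153) are neighbours on the plus strand with 2012 bases between them, and 86.0% identical in coding sequence. EXLA1 had 28.5, 20.6 and 22.3 CPM in Col-0, 54.4, 72.4 and 42.2 CPM in 35S:miR858, and 38.8, 44.0 and 36.8 CPM in 35S:rMYB83. Both lines lay above wild type. It rose 2.36-fold in 35S:miR858 (log2 1.24, SE 0.195, adjusted p = 0.00157) and 1.67-fold in 35S:rMYB83 (log2 0.74, SE 0.196, adjusted p = 0.0288). The second call did not pass without Col-0 replicate 2 (adjusted p = 0.0993), Col-0 replicate 3 (0.0947), 35S:rMYB83 replicate 1 (0.0576), replicate 2 (0.0959) or replicate 3 (0.0595). EXLA1 shares 22 of its 1143 bases with the histone gene HTB9 on the other strand, whose level differed by log2 0.23 (adjusted p = 0.186) and 0.01 (0.971).

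EXLA3 had 15, 6.87 and 7.10 CPM in Col-0, 26.5, 44.5 and 10.7 CPM in 35S:miR858, and 13.8, 13.0 and 13.7 CPM in 35S:rMYB83. The 35S:miR858 libraries spread widely and overlapped wild type. Its call as higher in 35S:miR858 (log2 1.48, SE 0.455, adjusted p = 0.0391) did not pass without Col-0 replicate 2 (adjusted p = 0.124), Col-0 replicate 3 (0.120), 35S:miR858 replicate 1 (0.0808), 35S:miR858 replicate 2 (0.166), 35S:rMYB83 replicate 2 (0.0598) or 35S:rMYB83 replicate 3 (0.0601). It was also lost with library totals alone (0.0575) and with only the 2 groups compared (0.0742), so 8 of 16 alternatives ended it. EXLA2 (AT4G38400, chr4:17978422-17979740, minus strand) had 5.34, 10.6 and 6.38 CPM in Col-0, 4.56, 5.24 and 3.98 CPM in 35S:miR858, and 2.27, 4.03 and 3.51 CPM in 35S:rMYB83. Every wild-type library lay above those of both lines. Its 2.23-fold fall in 35S:rMYB83 (log2 -1.16, SE 0.303, adjusted p = 0.0283) did not pass without Col-0 replicate 2 (0.0945), 35S:rMYB83 replicate 1 (0.0805) or 35S:rMYB83 replicate 3 (0.0716), nor with only the 2 groups compared (0.0540). In 35S:miR858 EXLA2 gave log2 -0.70 (adjusted p = 0.108), and passed without Col-0 replicate 1 (0.0445). It also passed there without replicate 1 of both Col-0 and 35S:rMYB83 (0.0286), and with library totals alone (0.0475).

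The root hair and lateral root expansins did not pass in any comparison. EXPA7 and EXPA18, the root hair expansins whose promoter matches are printed above, had wild-type levels of 33.4 ± 4.53 and 21.2 ± 4.64 CPM (SD, n = 3). EXPA7 differed by log2 -0.09 (95% interval -0.38 to 0.20) in 35S:miR858 and -0.03 (-0.31 to 0.26) in 35S:rMYB83. EXPA18 differed by -0.21 (-0.68 to 0.26) and 0.08 (-0.38 to 0.55), the latter at -0.02 with library totals in place of TMM scaling. EXPA14, linked to lateral root emergence downstream of the LBD18 factor, gave 0.11 (-0.28 to 0.51) and -0.09 (-0.48 to 0.31). EXPA17, linked to the same step, gave 0.05 (-0.31 to 0.42) and -0.35 (-0.72 to 0.02). With library totals, EXPA14 and EXPA17 turned to -0.03 and -0.10 in 35S:miR858. These 4 genes together held 136 ± 14.6 CPM in Col-0, 136 ± 17.8 CPM in 35S:miR858, and 124 ± 14.6 CPM with rMYB83 overexpressed.

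Of the other tested members that did not pass, EXPA9 had the highest level, at 76.8, 69.6 and 78.7 CPM in Col-0, 87.5, 94.9 and 64.1 CPM in 35S:miR858, and 95.5, 98.8 and 104 CPM in 35S:rMYB83. All 35S:rMYB83 libraries were above both other groups, with log2 0.41 against Col-0 (SE 0.134, adjusted p = 0.0666). The difference passed without 35S:miR858 replicate 3 (adjusted p = 0.0171), with DESeq2 (0.0339) and with only the 2 groups compared (0.0263). EXPA8 had 4.56, 7.51 and 2.65 CPM in Col-0, 2.16, 2.05 and 1.40 CPM in 35S:miR858, and 7.37, 2.93 and 3.06 CPM in 35S:rMYB83. Like EXPA10 and EXPA3, it was highest among 35S:rMYB83 libraries in replicate 1, the library with most green shoot marker RNA. By contrast, EXPB3, EXPA4, EXPA15 and the family sum (849 CPM) were lowest of 35S:rMYB83 in that library. EXPA8 was lowest in all 35S:miR858 libraries and close to the threshold (log2 -1.41, SE 0.468, adjusted p = 0.0523). EXPA8 passed in 8 of 16 alternative fits, such as those without Col-0 replicate 3 (0.0303) or 35S:rMYB83 replicate 1 (0.0260). Another was the fit without replicate 1 of both Col-0 and 35S:rMYB83 (0.0317). EXPA3, EXPA12, EXPA13 and EXPA20 gave log2 values from -0.70 to 0.39 in 35S:miR858 and from -0.71 to -0.02 in 35S:rMYB83, none of which passed. EXPA20 shares 1061 of its 1218 bases with AT4G38215 on the other strand, which stood at 0.467 CPM or less in each genotype. Whether reads were counted by strand is not stated, so reads of such pairs cannot be told apart.

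**Figure D4:**
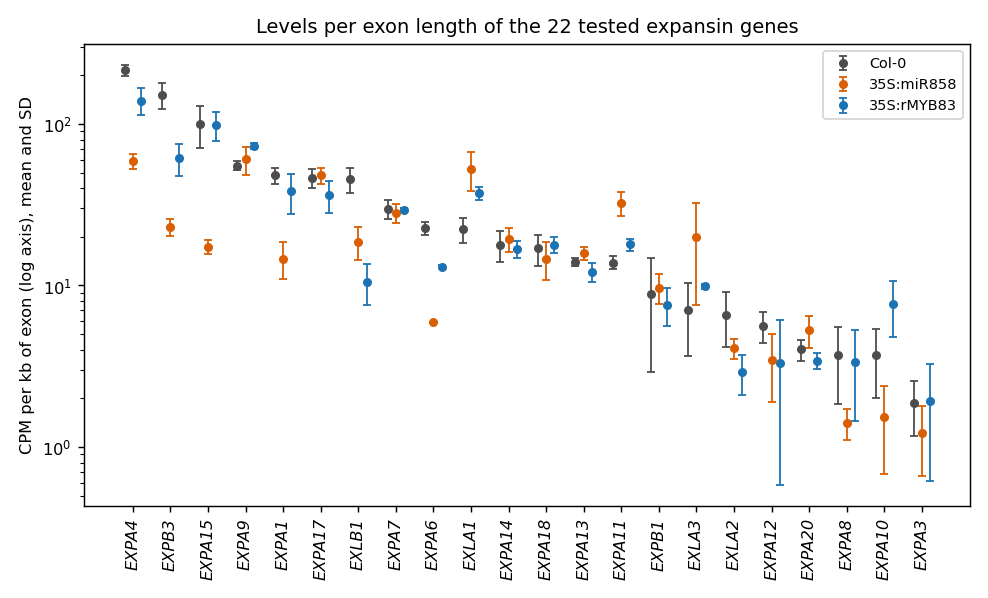
Mean level and SD in CPM per kb of exon (log axis) of the 22 tested expansins in each genotype (n = 3 libraries). EXPA4 leads in Col-0 at 214 and in 35S:rMYB83 at 140 CPM per kb, whereas EXPA9 and EXPA4 are level in 35S:miR858 at 60.4 and 58.7 CPM per kb.

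Per kb of exon, which allows levels of different genes to be compared, the order of the family changed between genotypes. In Col-0 the most abundant were EXPA4 at 214 ± 17.4, EXPB3 at 152 ± 28.2 and EXPA15 at 99.8 ± 28.8 CPM per kb, followed by EXPA9 at 55.1 ± 3.55, EXPA1 at 48.1 ± 5.35, EXPA17 at 46.3 ± 6.30 and EXLB1 at 45.5 ± 8.20 (SD, n = 3). The last 3 did not differ beyond their spread. In 35S:miR858 EXPA9 at 60.4 ± 11.8, EXPA4 at 58.7 ± 6.47, EXLA1 at 52.9 ± 14.2 and EXPA17 at 48.2 ± 5.44 CPM per kb led and lay within each other's spread, while EXPB3 was at 22.9 ± 2.68. In 35S:rMYB83 EXPA4 at 140 ± 26.2, EXPA15 at 99.0 ± 20.4, EXPA9 at 73.1 ± 3.26 and EXPB3 at 61.3 ± 13.5 CPM per kb led, and EXPA9 and EXPB3 did not differ beyond their spread.

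Of the 35 members, 10 carry a gene annotation note of a role in syncytia, the feeding cells that cyst nematodes induce in roots. They are EXPA1, EXPA3, EXPA4, EXPA6, EXPA8, EXPA10, EXPA15, EXPA16, EXPA20 and EXPB3, and this grouping was chosen after the values were seen. Of the 9 tested, 5 fell and none rose in 35S:miR858, with a median log2 fold change of -1.71, beside 13.5% of all tested genes called lower and 11.6% higher. In 35S:rMYB83 3 fell and none rose, with a median of -0.22, beside 9.73% and 6.7% of all genes. In the direct comparison 6 were higher in 35S:rMYB83, with a median of 1.25, beside 2.5% of all genes. Since the grouping was picked on these values, nothing is read from the difference to these shares. Among the 13 tested members without the note, 1 fell and 3 rose in 35S:miR858 (median 0.11), 2 fell and 1 rose in 35S:rMYB83 (median -0.09), and 1 was lower between the lines (median -0.38).

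The wall acidity that activates expansins is set by plasma membrane proton pumps (AHA), by PP2C.D phosphatases that inhibit them, and by regulators such as SAUR proteins, TMK receptor kinases, the peptide RALF1 and its receptor FER. Of 22 tested acid growth genes, 2 fell and 4 rose in 35S:miR858 (median log2 0.08), and 3 fell and 1 rose in 35S:rMYB83 (median 0.09). Between the lines none of the 22 passed by edgeR, beside 4.05% of all tested genes. There 6 of the 22 had an unadjusted p below 0.05, beside 3495 of all 19496 tested genes. The tested genes of the list were thus called at 27.3% and 18.2% in the lines, close to the 25.1% and 16.4% of all tested genes. Another 8 listed genes, SAUR19 to SAUR24, AHA6 and AHA9, fell below the filter and were not tested. The pump gene AHA4 fell from 19.8 ± 5.94 CPM in Col-0 to 4.90 ± 0.877 CPM in 35S:miR858 (log2 -2.01, adjusted p = 0.00119) and 5.81 ± 2.12 CPM in 35S:rMYB83 (log2 -1.73, adjusted p = 0.00393). AHA1, a far more abundant pump transcript, fell from 989.7 ± 140.0 CPM to 640.0 ± 12.9 and 668 ± 31.3 CPM (log2 -0.63, adjusted p = 0.0029, and -0.57, adjusted p = 0.00755). The phosphatase gene PP2C.D2 rose in both lines (log2 0.57, adjusted p = 0.000965, and 0.43, adjusted p = 0.00682). The others that rose in 35S:miR858 were the receptor kinase genes FER (log2 0.45, adjusted p = 0.0151), TMK1 (0.42, 0.00632) and TMK4 (0.42, 0.00384). The pump gene AHA11 also fell in 35S:rMYB83 (log2 -0.43, adjusted p = 0.0320). FER, TMK1, TMK4 and AHA11 were named after their values were seen.

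Other enzymes loosen walls by cutting polymers. Of 13 tested, 5 rose and 2 fell in 35S:miR858 (median 0.13), 2 rose and none fell in 35S:rMYB83 (median 0.12), and 1 was higher and 1 lower between the lines. The called share was 53.8% in 35S:miR858, beside 25.1% of all tested genes, and 15.4% in 35S:rMYB83, close to the 16.4% of all genes. Between the lines it was 15.4%, beside 4.05% of all tested genes. The xyloglucan galactosidase gene BGAL10 rose in both lines (log2 1.18, adjusted p = 9.14e-05, and 0.63, adjusted p = 0.00395), as did the polygalacturonase gene PGX1 (1.24, 0.000993, and 1.10, 0.00317). GH9C2, an endoglucanase gene, fell in 35S:miR858 (log2 -1.33, adjusted p = 0.000159).

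Among lateral root formation genes, 3 of 13 tested fell in 35S:miR858 and 2 in 35S:rMYB83, and none rose (medians -0.12 and -0.14). These were 23.1% and 15.4% of the tested list genes, close to the 25.1% and 16.4% of all tested genes. LBD29, LBD33, GATA23 and IDA fell below the filter and were not tested. The receptor gene HAE, which takes part in lateral root emergence, fell in both lines (log2 -1.51, adjusted p = 0.000175, and -1.01, adjusted p = 0.0023), as did MAKR4, a gene of lateral root founder sites (-0.75, 0.0181, and -0.93, 0.0110). The related receptor gene HSL2 fell in 35S:miR858 (log2 -0.40, adjusted p = 0.0359). Of 10 tested brassinosteroid growth regulators, 2 rose in 35S:miR858, the receptor gene BRI1 (log2 0.39, adjusted p = 0.00432) and the biosynthesis gene CPD (0.61, 0.0384). In 35S:rMYB83 the factor gene BES1 fell (log2 -0.52, adjusted p = 0.0201) and PRE3, which encodes a growth-promoting helix-loop-helix protein, rose (0.62, 0.0302), with medians of 0.16 and 0.19 over the list. In each line 20% of the list was called, beside the same 25.1% and 16.4%.

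Marker lists of cell types gave few calls, at 15.8% or less of a list beside 25.1% of all tested genes in 35S:miR858 and 11.1% or less beside 16.4% in 35S:rMYB83. By edgeR, 7289 of all 19496 tested genes had an unadjusted p below 0.05 in 35S:miR858 and 5926 in 35S:rMYB83. A marker that did not pass is not thereby shown to be level. Of 19 root hair markers, the regulator LRL3 rose in 35S:miR858 (log2 0.69, adjusted p = 0.00325) and PRP1 and MRH1 fell (-1.06, 0.0352, and -0.44, 0.0493). None of the 19 passed in 35S:rMYB83 by edgeR, where 2 had an unadjusted p below 0.05 and PRP1 gave log2 -0.76 (adjusted p = 0.136). Of 9 xylem markers, the laccase gene LAC4 rose in 35S:rMYB83 (log2 0.81, adjusted p = 0.0461), and none passed in 35S:miR858, where 1 had an unadjusted p below 0.05 (XCP1, log2 0.46, adjusted p = 0.119). The xylem list medians were -0.07 in 35S:miR858 and 0.30 in 35S:rMYB83, where 8 of the 9 lay above 0. No dividing meristem marker of 8 passed in either line, with 1 and 0 at an unadjusted p below 0.05 (CYCA1;1 -0.51, adjusted p = 0.0821, in 35S:miR858, and CYCB1;1 0.30, 0.394, in 35S:rMYB83). No green shoot marker of 15 passed or had an unadjusted p below 0.05 in either line (LHCB2.1 -1.76, 0.253, and LHCA3 1.02, 0.341), with list medians of -0.40 and 0.79. Of these 15, 13 lay below 0 in 35S:miR858 and all 15 above 0 in 35S:rMYB83. Between the lines all 15 were above 0 (median 1.09), and none passed. The fit without the 2 libraries that held the most green shoot marker RNA covered all tested expansins and changed 2 calls. EXPA8 (log2 -1.47, adjusted p = 0.0317 by edgeR) and EXLA2 (-0.89, 0.0286) then passed as lower in 35S:miR858. Beyond that fit, the part of green shoot RNA in the expansin values was not tested.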

How the data were processed

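Root mRNA was sequenced in 9 libraries, 3 per genotype. Per the submitters' processing notes, the authors used FastQC, Trimmomatic, TopHat2 2.0.14 and HTSeq with the TAIR10 build, and deposited whole-number counts per gene. Tool settings, annotation release and strand setting: not given in the sources used here. Summary rows of unassigned reads were left out of library sizes.

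All genes were fitted in edgeR 4.0.16 (R 4.3.3) with filterByExpr, TMM scaling and the quasi-likelihood test, with all 9 libraries in 1 fit and Benjamini-Hochberg adjustment over the 19496 genes tested (threshold 0.05). DESeq2 1.42.0 and other settings were alternatives. The main edgeR fit was tested on simulated data, and the alternatives were not. Replicates of a genotype differed by more than counting noise. Promoters and coding identity were computed with Biopython 1.88 from TAIR10.1.

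The members, and 8 lists of 126 genes (acid growth, other wall-loosening enzymes, lateral root formation, brassinosteroid growth regulators, and root hair, xylem, dividing meristem and green shoot markers), were chosen with earlier results of these data known, so no list was tested. Any member could be named. Values per library are given for members called at least once and the most abundant tested member of each subfamily, and for EXPA8, EXPA9 and EXPB1, picked after their values were seen. From each list up to 3 passing genes with the smallest adjusted p per line were named, or the 1 with the smallest p. Replicate numbers were not used as a block in the fit reported, since the labels name no shared batch. Deviations of same-numbered libraries correlated above 0.1 in all 3 pairs of Col-0 and 35S:rMYB83, but not in all pairs with 35S:miR858, so the block is given as an alternative.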

Additional observations from a re-analysis of the deposited data

How the results depend on the processing

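No tested expansin that was called turned direction under any of 16 alternatives. The count of expansins lower in 35S:miR858 stayed between 6 and 7 and the higher count between 2 and 3 when single libraries were left out. In 35S:rMYB83 the lower count ran from 3 to 5 and the higher count from 0 to 2, and between the lines 4 to 6 were higher and 1 to 2 lower. In 35S:rMYB83, 2 expansins were higher with only the 2 groups compared and 2 with DESeq2. Between the lines, 2 were lower with DESeq2.

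With the replicate number as a block, 7 expansins were lower in 35S:miR858, 2 were lower in 35S:rMYB83 than in 35S:miR858, and other expansin counts did not change. The labels name no shared batch. Deviations of same-numbered Col-0 and 35S:rMYB83 libraries correlated at 0.548, 0.241 and 0.141, all above 0.1. Libraries of unlike number also correlated, such as Col-0 replicate 3 with 35S:rMYB83 replicate 2 (0.464). So did 35S:miR858 replicate 3 with replicate 1 of Col-0 (0.323) and of 35S:rMYB83 (0.383). Whether the numbers mark pairs cannot be told from these values. Between Col-0 and 35S:rMYB83 the block changed no expansin call. For 35S:miR858 the pairs with Col-0 gave -0.06, 0.122 and -0.257, and those with 35S:rMYB83 gave -0.104, 0.312 and -0.131.

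Library totals in place of TMM scaling shifted the median of all genes by -0.14 in 35S:miR858 and -0.10 in 35S:rMYB83, and gave 8 lower and 2 higher expansins in 35S:miR858. The 13 members below the filter could not be tested at these counts.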
